A study of Homo sapiens with 6 samples.

Results

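Genes of the insulin-like growth factor (IGF) system were examined in LX-2 cells after silencing of OGT. The group comprised 10 genes taken by symbol, namely the receptors IGF1R, INSR and IGF2R, the substrates IRS1 and IRS2, and the binding proteins IGFBP3, IGFBP4, IGFBP5, IGFBP6 and IGFBP7. All 10 had a row among the 16907 genes of the files, and all 10 were among the 14853 genes tested. LX-2 is an established human hepatic stellate cell line, so that each value comes from 1 line. Cells were transfected for 72 h with 20 nM of siRNA, either a control siRNA (siControl) or an siRNA against OGT (siOGT), OGT being the enzyme that adds O-linked N-acetylglucosamine to proteins. Each group had 3 libraries, which the study described as independent experiments, and the siControl and siOGT libraries of one replicate number form a pair. No untransfected cells were among the samples.

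IGF1 and IGF2 are secreted peptides that act mainly through IGF1R, a tyrosine kinase closely related to the insulin receptor. Active receptors phosphorylate IRS1 and IRS2, which recruit PI3K and switch on AKT, and AKT in turn keeps FOXO transcription factors out of the nucleus. IGFBPs bind IGFs outside the cell, where they can hold them away from the receptor or store them in the matrix, and proteases release the bound peptide. Activated stellate cells are known to make several IGFBPs. O-GlcNAc has been linked to insulin signalling, since IRS1 and AKT are among the proteins reported to carry it.

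Libraries held between 25996770 and 27966801 expected counts. OGT fell by 2.18 on the log2 scale (SE 0.073, edgeR adjusted p-value 2.71e-12), from 177, 137 and 121 CPM in siControl to 39.9, 27.0 and 29.2 CPM in siOGT. CPM are counts scaled to a common library size by library total and TMM factor. Of 12 stellate cell and myofibroblast markers, 9 had a mean of at least 1 CPM. COL1A1 was between 1737 and 3175 CPM, whereas ACTA2 was between 4.83 and 9.69 CPM and LRAT and DES did not exceed 0.224 CPM. The summed level of these 12 markers was between 7189 and 8693 CPM in siControl and between 6405 and 7602 CPM in siOGT. At an edgeR adjusted p-value of at most 0.05, 5 of 10 tested markers were lower. The 1 higher marker was TAGLN (log2 difference 0.37, edgeR adjusted p-value 0.00362). Of all genes tested, 12.7% were lower and 12.7% higher by this rule. Markers of other cells were scarce. Their sums over all libraries reached at most 4.56 CPM for the hepatocyte list, of which ALB did not exceed 0.111 CPM. The highest sums were 8.20 CPM for the cholangiocyte list and 8.37 CPM for the endothelial list. The leukocyte sum rose with silencing, from a range of 132 to 164 CPM to one of 178 to 209 CPM. Nearly all of it was CD68, a lysosomal protein (between 123 and 201 CPM, log2 difference 0.46, edgeR adjusted p-value 9.47e-04), and the pan-leukocyte marker PTPRC stayed below 0.855 CPM. In bulk RNA, fewer cells of a kind and less RNA per cell cannot be told apart.

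Levels were first compared between the 10 genes within siControl, as CPM per kilobase of the representative transcript. IGFBP5 stood at the top with 324 ± 89.2 CPM per kb (SD, n = 3), followed by IGFBP4 with 121 ± 10.8, IGFBP7 with 84.9 ± 25.8 and IGFBP6 with 74.2 ± 14.9 CPM per kb. The substrates came next, IRS1 with 27.8 ± 3.56 and IRS2 with 15.6 ± 1.48 CPM per kb. IGF2R, the mannose 6-phosphate receptor that carries IGF2 to lysosomes, was at 13.5 ± 2.37 CPM per kb. The lowest were IGFBP3 (4.95 ± 0.195), IGF1R (4.33 ± 0.203) and INSR (3.01 ± 0.319 CPM per kb). Ranges of neighbours overlapped between IGFBP4 and IGFBP7, between IGFBP7 and IGFBP6, and between IRS2 and IGF2R, and the other neighbours did not overlap. The order was the same in siOGT. IGFBP3 and IGF1R changed places when the summed length of all annotated exons was used in place of 1 transcript.

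**Figure D1:**
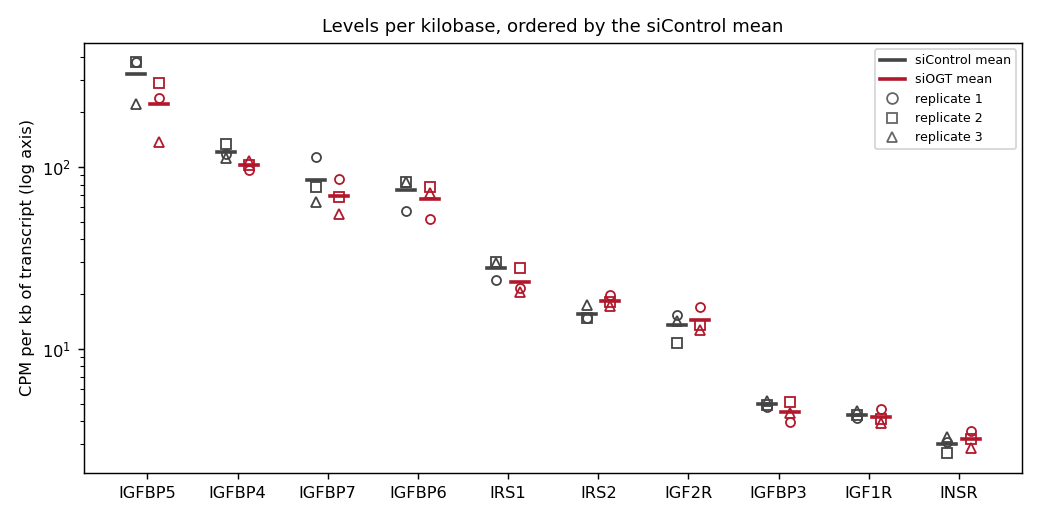
CPM per kilobase of transcript (log axis) of each gene in the siControl and siOGT libraries, with 1 symbol per library and a line at each group mean. IGFBP5 lies highest, at 324 CPM per kb in siControl and 222 CPM per kb in siOGT, and INSR lowest, at 3.01 and 3.19 CPM per kb.

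The question of the comparison was whether RNA of these genes depended on OGT. Most binding protein genes were lower after silencing (3 of 5), the substrates moved in opposite directions, and no change was called for the receptors. A gene was called where the edgeR adjusted p-value over all 14853 genes was at most 0.05. By this rule 4 of the 10 genes were lower and 1 was higher in siOGT. Over all genes tested 25.4% were called, 12.7% higher and 12.7% lower. The median log2 difference was -0.15 for the 10 genes and 0.0068 for all genes. Across pairs, 5 of the 10 genes were lower in siOGT in all 3 pairs, as were 26.6% of all genes, and 0 were higher in all 3 pairs, as were 27.4% of all genes. Log2 differences (log2 fold changes) are siOGT minus siControl, from the fit unless a pair is named. These calls rested on pairing: without the replicate block, 0 of the 10 genes were called by edgeR or by DESeq2. Of all genes edgeR then called 0.875% and DESeq2 6.77%. With either tool 2 of the 10 genes had an unadjusted p of 0.05 or less. The share of all genes at that unadjusted level was not determined, here or for any count given below. Pairs also differed in weight: without replicate 1, 1 of the 10 genes was called, without replicate 2 it was 3 and without replicate 3 it was 5. Of all genes, 12.5% were then called without replicate 1 (5.94% higher, 6.54% lower), 22.5% without replicate 2 (11.1%, 11.4%) and 23.8% without replicate 3 (11.4%, 12.4%). With other scalings or filters 5 of the 10 stayed called, against a background of 24.9% with median-ratio size factors, 25.1% with library totals, 24.2% with no filter and 27.9% with filterByExpr.

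**Figure D2:**
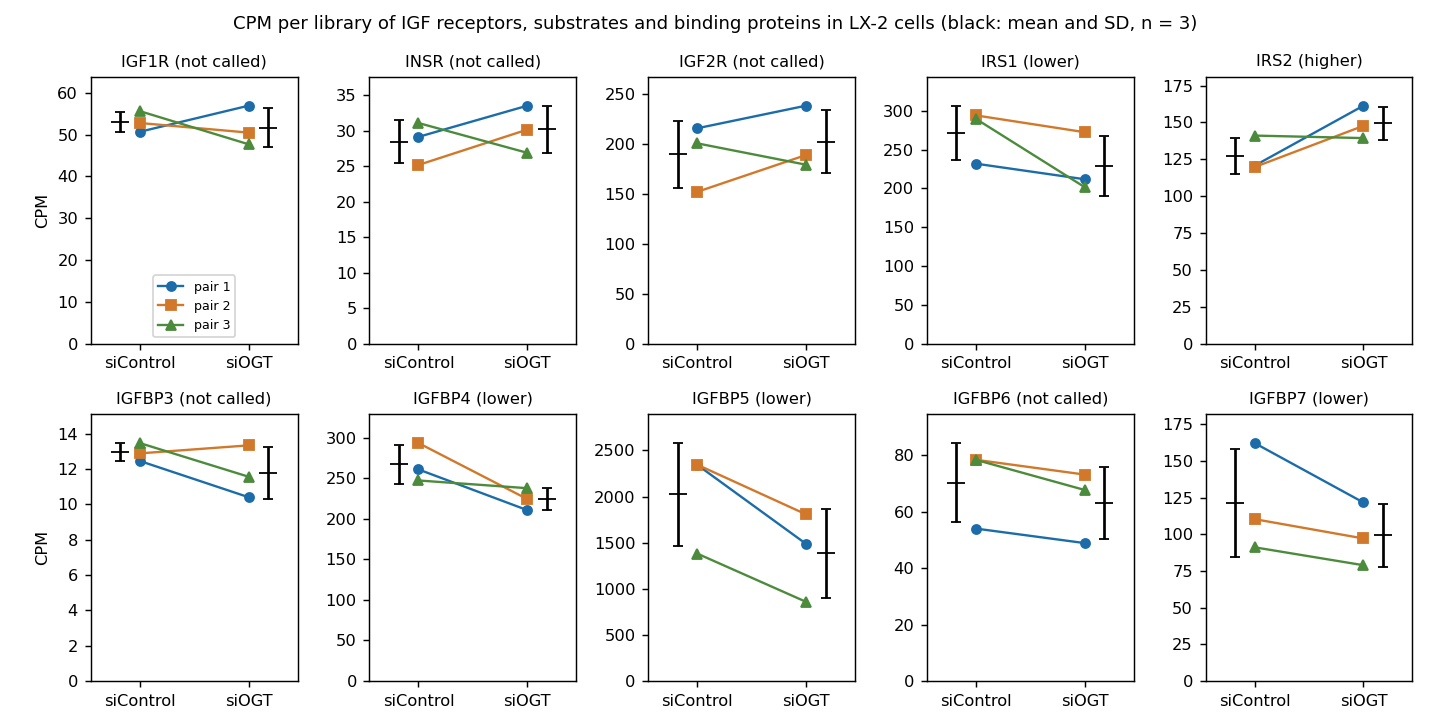
CPM of each of the 10 genes in siControl and siOGT, with a line for each replicate pair and the mean and SD of each group in black; the word beside each name is the edgeR call. Lines of IRS1, IGFBP4, IGFBP5, IGFBP6 and IGFBP7 run downwards in all 3 pairs, whereas those of the receptors run in both directions.

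For the receptors, IGF1R (chromosome 15, 98648539 to 98964530, plus strand, hg38) had 50.6, 52.8 and 55.6 CPM in siControl and 56.9, 50.5 and 47.7 CPM in siOGT. Its log2 difference was -0.039, with a 95% confidence interval of -0.20 to 0.12 (edgeR adjusted p-value 0.76). The siOGT values spanned both ends of the siControl values, and only pair 1 was higher. INSR, the insulin receptor (chromosome 19, 7112255 to 7294414, minus strand), had 29.1, 25.2 and 31.1 CPM in siControl and 33.5, 30.2 and 26.9 CPM in siOGT. For INSR the log2 difference was 0.084 (95% confidence interval -0.10 to 0.27, edgeR adjusted p-value 0.54). IGF2R (chromosome 6, 159969082 to 160113507, plus strand) had 216, 152 and 201 CPM in siControl and 239, 189 and 179 CPM in siOGT. For IGF2R it was 0.098 (95% confidence interval -0.068 to 0.26, edgeR adjusted p-value 0.402). INSR and IGF2R were alike in their pairs, higher in pairs 1 and 2 and lower in pair 3. With pair 3 left out, IGF2R was called higher (0.22, edgeR adjusted p-value 0.0198). With all pairs, 0 of 3 receptors had an unadjusted edgeR p of 0.05 or less, and DESeq2 with the block also called 0. IGF2R had whole-number counts in 4 of 6 libraries only, that is, some of its reads were divided with another gene. A pseudogene on the same strand, CHP1P2, shares 571 of its exonic bases.

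For the substrates, IRS1 (chromosome 2, 226731312 to 226799820, minus strand) had 232, 294 and 290 CPM in siControl and 212, 273 and 202 CPM in siOGT. The groups overlapped, but IRS1 was lower within each pair, by log2 ratios of -0.13, -0.11 and -0.52. Its log2 difference was -0.25 (SE 0.078, 95% confidence interval -0.42 to -0.090, edgeR adjusted p-value 0.0232). Pair 3 carried much of this difference, as the log2 difference was -0.13 without it (edgeR adjusted p-value 0.143). The call was also lost without pair 1 (-0.32, 0.0559).

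IRS2 (chromosome 13, 109752695 to 109786583, minus strand) had 121, 120 and 141 CPM in siControl and 161, 148 and 139 CPM in siOGT. It was higher in pairs 1 and 2, by 0.42 and 0.30, and differed by -0.018 in pair 3. Its log2 difference was 0.23 (SE 0.077, 95% confidence interval 0.073 to 0.40, edgeR adjusted p-value 0.0325). The call was lost with DESeq2 with the block (0.0557), without pair 1 (log2 difference 0.14, edgeR adjusted p-value 0.405) and without pair 2 (0.20, 0.0905).

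Over the pairs, the change in the balance between the substrates was steadier than the change in either gene. The ratio of IRS2 to IRS1, taken within a library and therefore unaffected by library scaling, was 0.520, 0.407 and 0.487 in siControl and 0.762, 0.542 and 0.691 in siOGT. The lowest siOGT ratio lay above the highest siControl ratio. IRS1 was called lower and IRS2 higher in these same libraries, so the rise of the ratio is not separate evidence. How often ratios of other genes part the groups in this way was not determined. On the log2 scale the ratio rose by 0.55, 0.41 and 0.51 in the 3 pairs, a mean of 0.49 ± 0.070 (SD, n = 3 pairs), and no test was made of it. In pair 3 IRS1 fell and IRS2 hardly moved, and in pairs 1 and 2 most of the difference came from IRS2. By contrast, the ratio of IGF1R to INSR changed by -0.035, -0.33 and -0.013 in the pairs (log2), and its groups overlapped. These ratios are not corrected for transcript length, which does not alter their differences between groups.

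**Figure D3:**
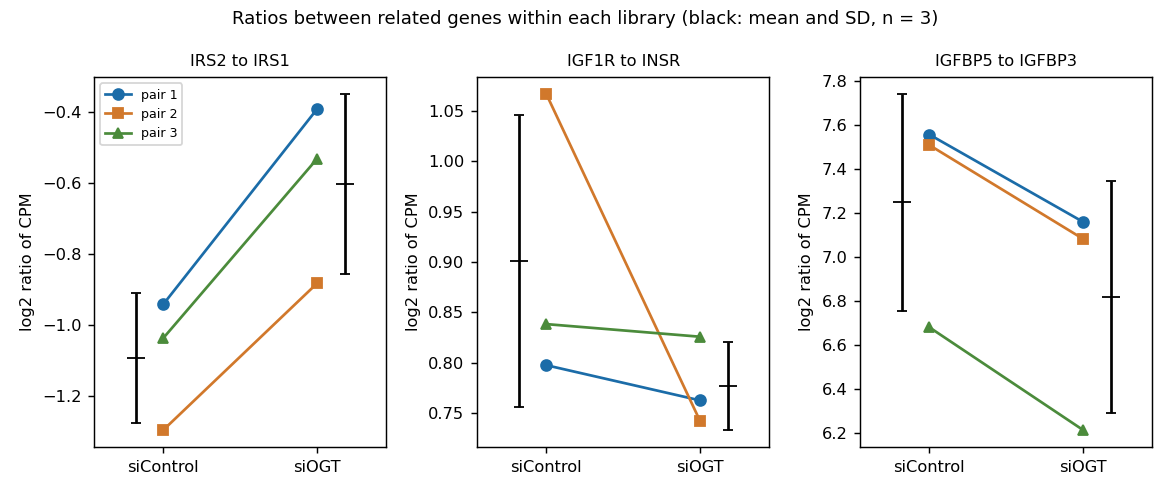
Log2 ratio of CPM within each library for IRS2 to IRS1, IGF1R to INSR and IGFBP5 to IGFBP3, with a line per replicate pair and the group mean and SD in black. The ratio of IRS2 to IRS1 rose in 3 of 3 pairs, by 0.55, 0.41 and 0.51, and that of IGFBP5 to IGFBP3 fell by 0.40, 0.43 and 0.47.

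The 250 bases before the annotated starts of the substrates are shown (RefSeq, GRCh38.p14, 5′ to 3′ in the direction of transcription). Capitals mark matches, on either strand, to the core of the TEAD site (CATTCC) and to the insulin response element (CAAAACAA), an element known to be bound by FOXO factors.
IRS1 (chr2:226799821-226800070, minus strand): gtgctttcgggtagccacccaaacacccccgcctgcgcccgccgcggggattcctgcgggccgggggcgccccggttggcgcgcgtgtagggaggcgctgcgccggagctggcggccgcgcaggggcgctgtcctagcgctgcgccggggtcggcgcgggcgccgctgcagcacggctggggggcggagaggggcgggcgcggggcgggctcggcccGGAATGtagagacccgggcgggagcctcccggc
IRS2 (chr13:109786584-109786833, minus strand): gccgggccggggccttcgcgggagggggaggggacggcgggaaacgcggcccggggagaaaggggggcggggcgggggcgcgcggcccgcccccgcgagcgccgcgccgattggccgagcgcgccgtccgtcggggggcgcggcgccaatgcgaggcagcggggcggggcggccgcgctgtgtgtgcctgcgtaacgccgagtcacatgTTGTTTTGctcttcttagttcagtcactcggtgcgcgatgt
In IRS1 the TEAD core was read on the opposite strand and began 33 bases before the start. In IRS2 the insulin response element was read on the opposite strand and began 41 bases before the start. Of 27305 promoters of this length, 11.9% held the TEAD core and 1.46% the insulin response element. Of the 9 genes of the group with a promoter sequence, IGFBP7 being the one without, the TEAD core was found in IGFBP5, IGFBP6 and IRS1, and the insulin response element in IRS2. Starts for the promoters are those of RefSeq. The windows of IGFBP6 (53097417 to 53097666) and IGFBP3 (45921273 to 45921522) lay largely or wholly inside the gene positions given below. Matches in IGFBP6 therefore need not lie before the start of the gene as placed there. The share of G and C was 80.8% in IRS1 and 76.4% in IRS2, against a median of 58.0% over all promoters. The motifs were chosen after the promoters had been read. These matches describe letters, binding was not measured here, and a link to the RNA changes was not tested.

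Among the binding proteins, 3 of 5 were called lower and 0 higher by edgeR, where 12.7% of all genes were called in each direction. At an unadjusted p of 0.05 or less 4 were lower and 0 higher, a level whose share of all genes was not determined. DESeq2 with the block also called 3 lower and 0 higher, having called 19.2% of all genes (8.90% higher, 10.3% lower). IGFBP5 is a binding protein that adheres to extracellular matrix and is a common product of fibroblasts and myofibroblasts. It lies on chromosome 2 from 216672105 to 216695549 on the minus strand. The siControl libraries had 2345, 2347 and 1382 CPM of IGFBP5 and the siOGT libraries 1487, 1807 and 858 CPM. Values in replicate 3 were the lowest of either group, so the groups overlapped, but within pairs IGFBP5 was lower by log2 ratios of -0.66, -0.38 and -0.69. The fit gave a log2 difference of -0.57 with a 95% confidence interval of -0.73 to -0.42 (SE 0.075, edgeR adjusted p-value 3.44e-05), that is, 32.8% less RNA than in siControl. This was the largest fall of the 10 genes. IGFBP5 stayed called when any of the pairs was left out, with log2 differences from -0.67 to -0.52. Of the variance of its log2 CPM, 65.2% lay between replicate numbers, 32.8% between groups and 1.95% in neither. Without the block the log2 difference was -0.55 with an edgeR adjusted p-value of 0.312.

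IGFBP7, a binding protein with low affinity for IGFs that is deposited in matrix (chromosome 4, 57030773 to 57110385, minus strand), had 162, 110 and 91.1 CPM in siControl and 122, 97.1 and 78.9 CPM in siOGT. The groups overlapped, and each pair was lower, by -0.41, -0.18 and -0.21. Its log2 difference was -0.27 (SE 0.068, edgeR adjusted p-value 0.00722), and without pair 1 it was -0.20 and not called (0.183). On the opposite strand POLR2B shares 260 of its exonic bases, and counting used strand.

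IGFBP4, which is cut by the protease PAPPA (chromosome 17, 40443450 to 40457725, plus strand), had 261, 294 and 248 CPM in siControl and 211, 225 and 238 CPM in siOGT. It was the only one of the 10 genes whose groups did not overlap, whereas 23.9% of all genes tested had groups that did not overlap. Pair 3 differed least, by -0.057, against -0.31 and -0.39 in pairs 1 and 2. The log2 difference was -0.25 (SE 0.072, edgeR adjusted p-value 0.0160). The call was lost without pair 1 (-0.22, 0.180) and without pair 2 (-0.18, 0.125).

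IGFBP6, which prefers IGF2 over IGF1 (chromosome 12, 53097436 to 53102345, plus strand), had 54.0, 78.4 and 78.4 CPM in siControl and 48.9, 73.2 and 67.7 CPM in siOGT. Every pair was lower, by -0.14, -0.10 and -0.21, but its log2 difference of -0.15 (95% confidence interval -0.29 to -0.013) did not pass the test over all genes (edgeR adjusted p-value 0.102). Replicate number carried 90.9% of its variance and group 8.30%. IGFBP3, the main IGF carrier of serum (chromosome 7, 45912245 to 45921874, minus strand), had 12.5, 12.9 and 13.5 CPM in siControl and 10.4, 13.3 and 11.6 CPM in siOGT. Its log2 difference was -0.14 (95% confidence interval -0.36 to 0.074, edgeR adjusted p-value 0.346), with pair 2 higher and the other pairs lower.

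IGFBP5 had the highest CPM per kb of the group in every library. It made up between 45.6% and 56.1% of the summed CPM per kb of the 5 binding proteins in siControl and between 36.5% and 53.5% in siOGT. The sum itself was 670, 674 and 486 CPM per kb in siControl and 475, 542 and 377 CPM per kb in siOGT, lower in 3 of 3 pairs. The ratio of IGFBP5 to IGFBP3 fell by 0.40, 0.43 and 0.47 on the log2 scale in the 3 pairs, a mean of -0.43 ± 0.035 (SD, n = 3 pairs). Its values were 188, 182 and 103 in siControl and 143, 135 and 74.2 in siOGT, and the groups overlapped because replicate 3 was low in both. No test was made of this ratio. IGFBP5 was called lower in these same libraries, so neither the sum nor the ratio is separate evidence. On the opposite strand DIRC3-AS1 shares 487 exonic bases with IGFBP5.

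The 250 bases before the starts of IGFBP5, which fell most, and of IGFBP4, whose groups did not overlap, are given as for the substrates. Capitals mark the TEAD core (CATTCC) and the TATA box (TATAAA).
IGFBP5 (chr2:216695550-216695799, minus strand): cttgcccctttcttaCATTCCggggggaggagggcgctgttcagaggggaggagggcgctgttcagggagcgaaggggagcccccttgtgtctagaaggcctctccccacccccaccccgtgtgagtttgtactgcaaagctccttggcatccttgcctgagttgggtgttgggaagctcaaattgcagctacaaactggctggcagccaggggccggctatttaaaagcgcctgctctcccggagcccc
IGFBP4 (chr17:40443200-40443449, plus strand): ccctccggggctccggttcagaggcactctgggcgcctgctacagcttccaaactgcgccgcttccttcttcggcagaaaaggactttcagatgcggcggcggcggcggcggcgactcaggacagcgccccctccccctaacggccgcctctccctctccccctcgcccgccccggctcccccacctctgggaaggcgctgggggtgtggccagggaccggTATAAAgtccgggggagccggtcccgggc
The TEAD core of IGFBP5 began 235 bases before the start, and the TATA box of IGFBP4 began 29 bases before it. A TATA box of these letters was found, on either strand, in 11.1% of all promoters and in no other gene of the group that had a sequence. The FOXO consensus GTAAACA was found in 2.98% of all promoters, and within the group in IGFBP6. IGFBP5 and IGFBP4 thus shared no exact match to the motifs searched, and their shares of G and C were 61.2% and 71.6%. Variants of these motifs, such as other forms of a TATA box, were not searched.

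**Figure D4:**
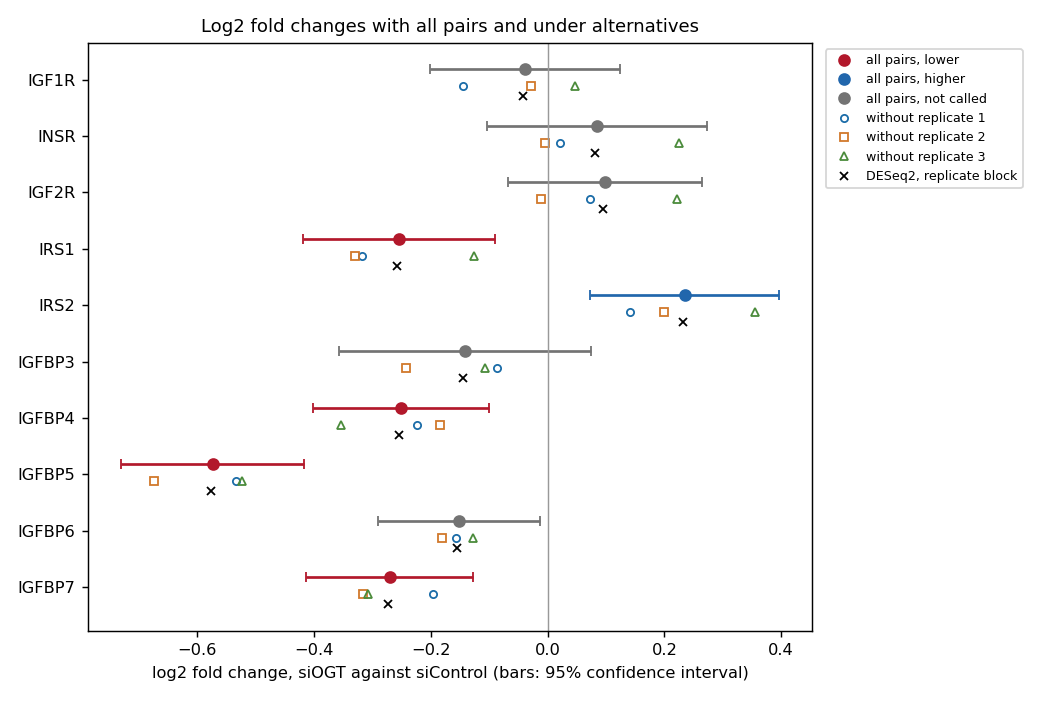
Log2 differences of siOGT against siControl with 95% confidence intervals from edgeR with all pairs (filled circles), with the values after leaving out each replicate pair (open symbols) and from DESeq2 with the replicate block (crosses). IGFBP5 stays between -0.67 and -0.52 without any of the pairs, whereas IRS1 moves to -0.13 without replicate 3 and the receptors lie on either side of 0.

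The other genes of the pathway were described with 5 lists holding 70 genes, of which 62 were tested. Of these, 17 were called higher and 7 lower (38.7% called, against 25.4% of all genes), with a median log2 difference of 0.067. The 14853 genes behind the 25.4% include genes of low level, as 12373 had a mean of at least 1 CPM. With filterByExpr, which removed more genes of low count, 23 of 58 were called, against 27.9% of all genes. Without the block edgeR called 2 of them, FBXO32 being one, and without replicate 1 it called 15. Among ligands and other binding proteins 1 of 4 tested genes was called (25%), near the share of all genes. IGF2, the fetal-type ligand (chromosome 11, 2129112 to 2158391, minus strand), had 116, 95.3 and 58.7 CPM in siControl and 87.6, 66.8 and 54.3 CPM in siOGT. It was lower in 3 of 3 pairs, by -0.41, -0.51 and -0.11, with a log2 difference of -0.35 (SE 0.076, edgeR adjusted p-value 0.00270). The readthrough gene INS-IGF2 and an annotated gene without a symbol share 1460 and 2711 of its exonic bases on the same strand. IGF2 had whole-number counts in 6 of 6 libraries. Counts would also be whole if the annotation used for counting lacked these genes, so they cannot show that no reads were shared. IGF1 had at most 4.91 expected counts in a library and was not called. Its log2 difference was poorly determined at this depth (95% confidence interval -1.37 to 2.97). INS and IGFBP1 were not analysed here, and IGFBPL1 was too low to be tested. IGFBP2, whose gene neighbours IGFBP5, fell short of a call, with a log2 difference of -0.22 (95% confidence interval -0.46 to 0.026, edgeR adjusted p-value 0.185). IGFALS, the subunit that stabilises IGFs in serum, averaged 0.248 and 0.285 CPM and was not called.

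Genes of the list of proteases and their inhibitors moved both ways, with 2 of 7 tested higher and 2 lower, where 12.7% of all genes were called in each direction. Leaving out the block left 0 of them called by edgeR (3 at an unadjusted p of 0.05 or less) and 0 by DESeq2 (2 unadjusted). STC2, a secreted inhibitor of PAPPA, had 193, 93.8 and 159 CPM in siControl and 321, 160 and 225 CPM in siOGT. It rose in 3 of 3 pairs, with a log2 difference of 0.67 (SE 0.069, edgeR adjusted p-value 4.32e-06). PAPPA itself had a log2 difference of 0.094 and was not called (0.549), its pairs differing in sign. ADAM12, a protease that cuts IGFBPs, had a log2 difference of 0.31 (0.00265). The proteases PRSS23 and ADAMTS1 fell, by 0.47 and 0.31 on the log2 scale (edgeR adjusted p-values 6.95e-05 and 0.00405). Whether PRSS23 acts on any IGFBP was not examined here. Of 6 tested receptor processing and IGF2 mRNA binding genes 1 was called (16.7%, against 25.4% of all genes). It was PCSK7, a proprotein convertase, at 0.42 (2.43e-04). The values of FURIN, the convertase that cuts the receptor precursors, and of IGF2BP2 were 0.040 and 0.051, neither called.

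In the adaptors and the PI3K-AKT-mTOR branch 8 of 33 tested genes were higher and 4 lower, that is 36.4% called against 25.4% of all genes. Without replicate 1 the count was 3 higher and 3 lower, and without the block edgeR called 1 and DESeq2 5. AKT1, a kinase at the centre of the branch, fell from 192, 141 and 147 CPM to 138, 105 and 103 CPM (log2 difference -0.47, SE 0.064, edgeR adjusted p-value 4.74e-05). Its groups did not overlap, which was also so for 23.9% of all genes tested. AKT2, a relative of AKT1, had a log2 difference of -0.12 and was not called (0.196). SHC1, the adaptor that links receptors to the RAS pathway, and SOCS1, a feedback inhibitor, fell by 0.40 and 0.51 on the log2 scale. PTPN1, the phosphatase that switches off the insulin receptor, and TSC1, an inhibitor of mTORC1, rose by 0.39 and 0.31 (edgeR adjusted p-values 2.44e-04 and 0.00292).

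Of 12 FOXO factors and genes known as FOXO targets, 6 were called higher and 0 lower by edgeR, against 12.7% of all genes in each direction, and the median log2 difference was 0.21. The number higher was 3 without replicate 1, 4 without replicate 2, and 1 without the block, and 1, CCNG2, was called lower without replicate 3 or with no filter. At an unadjusted p of 0.05 or less, 6 were higher and 1 lower, the cyclin gene CCNG2 (-0.28, edgeR adjusted p-value 0.0623), and DESeq2 with the block called 3 higher and 0 lower. KLF15, a metabolic transcription factor, had 4.56, 2.99 and 4.08 CPM in siControl and 8.44, 6.65 and 9.81 CPM in siOGT (log2 difference 1.10, SE 0.14, edgeR adjusted p-value 2.75e-05). FBXO32, a ubiquitin ligase, rose from 15.7, 15.0 and 21.6 CPM to 42.3, 30.4 and 37.1 CPM (1.07, SE 0.10, 1.65e-06). TXNIP, which is also known to respond to glucose, rose from 217, 174 and 185 CPM to 326, 257 and 291 CPM (0.60, SE 0.064, 5.61e-06). The groups of these 3 genes did not overlap, which was also so for 23.9% of all genes tested. BCL6, a transcriptional repressor, was also called higher (0.22, 0.0233). FOXO3 and FOXO4 had log2 differences of 0.20 and 0.31 (edgeR adjusted p-values 0.0414 and 0.0196), but reads of FOXO3 were partly divided with another gene. FOXO1, with means of 3.69 and 4.28 CPM, was not called (0.428).

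**Figure D5:**
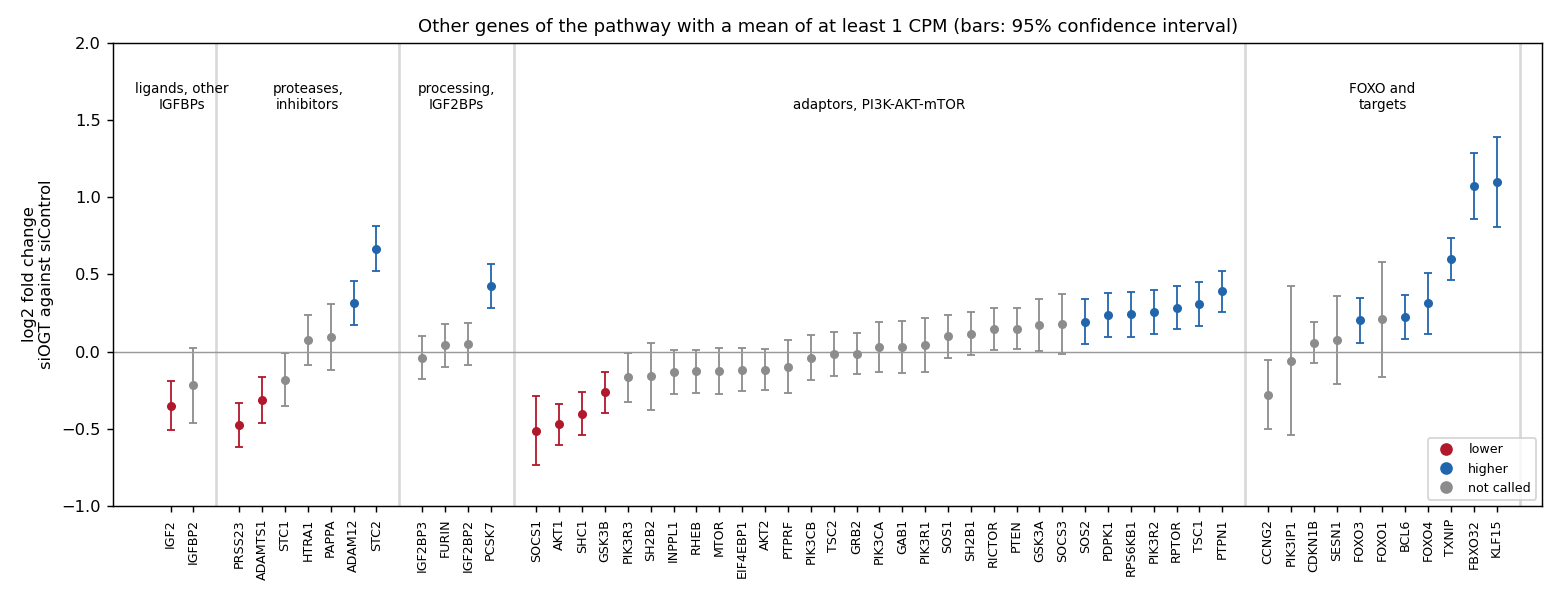
Log2 differences of siOGT against siControl with 95% confidence intervals for 55 tested genes of the other pathway lists with a mean of at least 1 CPM, grouped by list and ordered within it. KLF15 and FBXO32 lie highest, at 1.10 and 1.07, and SOCS1 and PRSS23 lowest, at -0.51 and -0.47.

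The genes most like IGFBP5 and IRS2, the called genes of the group with the lowest and the highest log2 difference, were sought by Pearson correlation of log2 CPM over the 6 libraries among 12363 other genes. For IGFBP5 they were HYKK (0.997), ENAH (0.993) and PLXND1 (0.992), of which PLXND1 was called lower (log2 difference -0.43). For IRS2 they were TBX19 (0.993), RUNX1 (0.993) and CHD2 (0.992), with RUNX1 and CHD2 called higher (0.21 and 0.25). After pair means were removed the 3 leading genes were ULBP3, SREBF2 and BUB1B for IGFBP5 and MECOM, IGHMBP2 and ZNF19 for IRS2. Over 6 libraries such values were common, as 59 genes reached 0.95 with IGFBP5 and 31 with IRS2, and 1547 and 438 did once pair means were removed. These genes share library, depth and replicate with the gene they resemble.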

How the data were processed

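RNA was measured by polyadenylated RNA sequencing in 3 siControl and 3 siOGT libraries of LX-2 cells, with groups and replicate numbers taken from the labels. Per the labels and the study's methods, the authors aligned paired-end reads to hg38 with Bowtie2 (2.3.5.1) and counted them per gene, by strand, with RSEM (1.3.1). The values deposited are expected counts, in which a read matching several genes is divided between them. The authors' own comparison was not used. It was deposited with mean counts, log2 fold changes and p-values.

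Expected counts were rounded, genes with a total below 10 removed, and libraries scaled by TMM (factors 0.979 to 1.02). Genes were tested in edgeR (4.0.16, R 4.3.3) by its quasi-likelihood F test, two-sided, blocking on replicate number, with Benjamini-Hochberg adjustment over all genes. Standard errors and 95% confidence intervals come from the F statistic. Log2 ratios within pairs use a prior count of 2. The script was tested on simulated counts. The study's methods pair samples of one replicate, and deviations from group means correlated between same-numbered libraries by 0.69, 0.53 and 0.33 across 12373 genes, which are not independent replicates. Alternatives were DESeq2 (1.42.0), other scalings and filters, and leaving out each pair.

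The 10 genes, the other lists and the tests were chosen with earlier results of these data known, and the motifs after the promoters had been read. Named in the text are these 10 genes, OGT, the ligands and other binding proteins, and in each further list up to 3 called genes in each direction with a mean of at least 1 CPM. PAPPA, FURIN, IGF2BP2, AKT2, FOXO1, FOXO3, FOXO4, BCL6 and CCNG2 were added after their values were seen, and some genes that the rule or the lists hold are counted but not reported here. Gene positions and transcript lengths are from GENCODE 44 on hg38. It held all 10 genes and 15906 of the 16907 symbols in the files, and the annotation used for counting may differ.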

Additional observations from a re-analysis of the deposited data

How the results depend on the processing

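DESeq2 without the replicate block was chosen after the data were seen. Without the block edgeR called 130 genes, 0 of the 10 genes described (0 higher, 0 lower, 2 at an unadjusted p of 0.05 or less) and 2 genes of the other lists. DESeq2 called 849, 0 (0 higher, 0 lower, 2 unadjusted) and 9 without the block, and 2415 genes with it, 4 of them among the 10, with 0 higher (1 unadjusted), as IRS2 lost its call. Leaving the block out raised the common dispersion from 0.00449 to 0.0193. Leaving out 1 replicate pair gave from 1803 to 3439 called genes, from 1 to 5 of the 10, from 0 to 2 higher, from 1 to 3 lower and from 15 to 25 in the other lists, with the fewest without replicate 1, and the cause was not tested. Such fits have 1 residual degree of freedom. Without 1 pair IGF1R ranged from -0.15 to 0.046, INSR from -0.0043 to 0.23 and IGF2R from -0.011 to 0.22 on the log2 scale. The log2 ratio of IRS2 to IRS1 changed by 0.46 to 0.53, that of IGF1R to INSR by -0.18 to -0.024, and that of IGFBP5 to IGFBP3 by -0.45 to -0.41. Median-ratio size factors, library totals, no filter and filterByExpr each left 5 of the 10 called. Library totals moved the median of all genes from 0.0068 to 0.029. The smallest difference that 3 pairs can detect was not determined. With the block, p-values rest on how differences within pairs vary between pairs of cultures of 1 cell line. In edgeR that spread was in part estimated over all genes, with a weight of 15.5 degrees of freedom.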
